A study of Mus musculus with 5 samples.

Results

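The genes examined here write, remove or read methyl marks on cytosine. They were taken by symbol from the 5 expression files, all 9 were present among 23361 listed genes, and the rule uses names, not values. The 3 DNA methyltransferases were *Dnmt1*, *Dnmt3a* and *Dnmt3b*. *Uhrf1* and *Uhrf2* encode a pair of related proteins that recognise modified CpG, *Tet1*, *Tet2* and *Tet3* encode dioxygenases, and *Mbd1* encodes a methyl-CpG binding protein.

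RNA was sequenced from the hippocampus of mice aged 3 months. The control group (n = 2) carries the label WT. The study describes its controls of this age as mice with the floxed *Hdac1* allele (*Hdac1* f/f), and gives no Cre for them. The *Hdac1* cKO group (n = 3) carried the floxed allele with *Nestin-Cre*, which removes the gene from neurons and astrocytes. The gene remains in microglia. The study used males in its young group. Since no Cre is given for the controls, deletion and presence of the transgene cannot be told apart. In RNA of whole tissue, fewer cells of a type cannot be told apart from less RNA per cell. By immunohistochemistry the study reported no significant change in the abundance of neurons, astrocytes or microglia at this age. The values are FPKM, fragment counts scaled to transcript length and to library size, so levels can be compared between genes per unit of length.

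DNMT3A and DNMT3B place methyl groups on unmethylated CpG, whereas DNMT1 copies the pattern onto the new strand after replication. UHRF1 binds CpG methylated on a single strand and brings DNMT1 there. TET enzymes oxidise methylcytosine to hydroxymethylcytosine, a base that is abundant in neurons, and the glycosylase TDG removes the further oxidised forms. HDAC1 meets this system through its partners, because methyl-CpG binding proteins recruit corepressor complexes that hold HDAC1 and HDAC2. The comparison asks whether transcripts of this machinery differ when *Hdac1* is deleted in the young brain.

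The 5 libraries held an estimated 5140000 to 6770000 fragments each, read from the steps in their low values. The hippocampal markers *Neurod6* (64.0 to 87.3 FPKM) and *Prox1* (14.0 to 16.4 FPKM) were present in every library. *Hdac1* itself was at 8.95 and 13.1 FPKM in control mice and at 1.95, 3.12 and 3.37 in cKO mice (log2 fold change −1.66, limma adjusted p = 0.219, two-sided exact permutation p = 0.1, the smallest possible), and its longest transcript matches *Gm10093* at 98.7% over 1978 nt. Steps in low values also divided the libraries into a first set (control 1 and cKO 1) and a second set (control 2, cKO 2 and cKO 3). Between 24.6% and 28.4% of low genes fell in the fullest ratio window within a set, against 3.71% to 4.64% across sets. Differences within each set are given below as set values. The first set holds 1 library a group and the second 1 control, so these have no p-value. *Hdac1* was −1.76 and −1.73 within the sets, and with the set as a term in the fit its adjusted p was 0.00389.

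No member differed between genotypes beyond the spread of the libraries. Of the 9 members 7 had a mean of at least 1 FPKM and were tested, and 0 of these passed an unadjusted limma p of 0.05, where 4.36% of all 12740 tested genes passed. At the study's threshold (fold of at least 1.5 with p under 0.05) 0 of 7 passed, against 0.659% of all genes, and at an adjusted p of 0.05 it was 0 of 7, against 0.00785%. The groups overlapped in every member, while they did not overlap in 20.4% of tested genes. The median log2 fold change of the 7 tested members was −0.04, beside 0.01 over all tested genes, with 3 members above 0 and 4 below. The median absolute log2 fold change was 0.0962 in the members and 0.0997 over all tested genes.

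**Figure D1:**
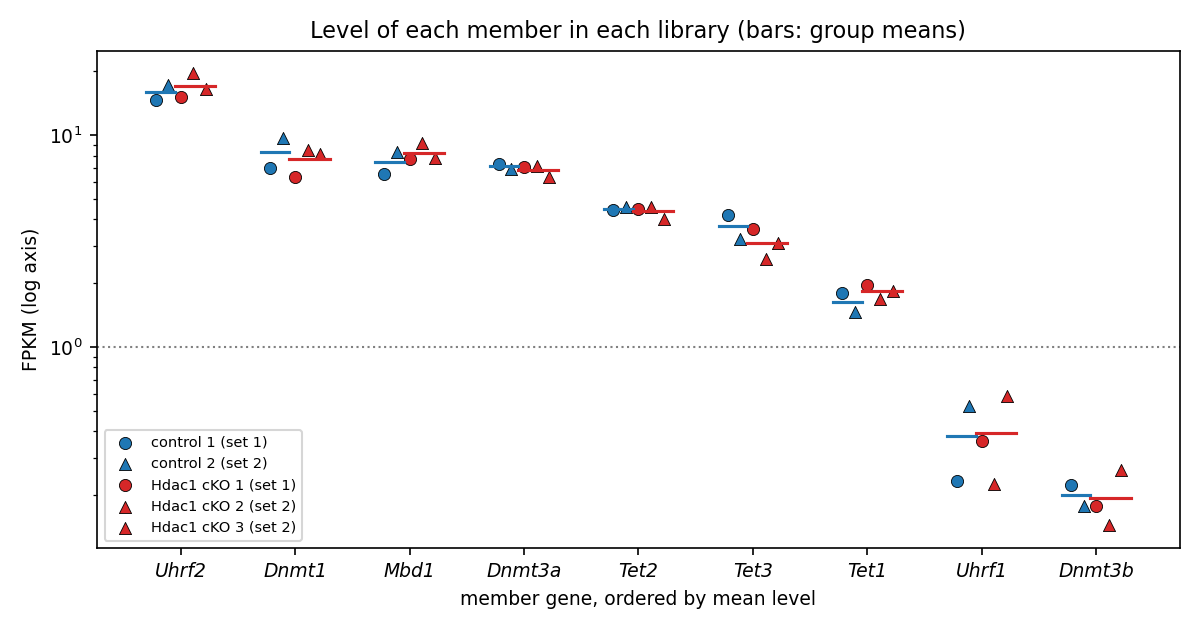
Level of each member in FPKM on a log axis, with 1 point per library, blue for control and red for *Hdac1* cKO. Circles mark the first library set and triangles the second, short bars mark group means, and the dotted line is the 1 FPKM minimum for testing. Points of both groups overlap in every member, and *Uhrf1* and *Dnmt3b* lie below the line in all 5 libraries.

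Levels differed far more between members than between genotypes. *Uhrf2* was highest, with a mean of 16.6 ± 1.96 FPKM over the 5 libraries (SD), and stood above *Dnmt1* in all 5 libraries by 1.79-fold to 2.38-fold. *Dnmt1* (7.95 ± 1.29), *Mbd1* (7.92 ± 0.962) and *Dnmt3a* (6.99 ± 0.374) came next. These 3 could not be ordered, since *Dnmt1* exceeded *Mbd1* in 3 of 5 libraries, *Mbd1* exceeded *Dnmt3a* in 4 of 5, and their ranges overlapped. *Tet2* followed at 4.42 ± 0.243 FPKM, below *Dnmt3a* in every library. It exceeded *Tet3* (3.35 ± 0.594) in 5 of 5 libraries although the ranges overlapped. *Tet1* was lower still at 1.75 ± 0.190 FPKM, with no overlap with *Tet3*. *Uhrf1* (0.385 ± 0.165) and *Dnmt3b* (0.196 ± 0.0457) were last, with overlapping ranges. Among all listed genes *Uhrf2* lay between percentiles 78.4 and 82.4 of its library and *Dnmt3b* between 34.7 and 37.4.

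The RefSeq promoters of the genes at both ends of this order, *Uhrf2* and *Dnmt3b*, and the promoter with most CpG, that of *Tet2*, show the dinucleotide that these proteins act on. Each run gives the 250 bases before the transcription start, read 5′ to 3′ on the gene's strand (build GRCm38.p6), and capitals mark CpG. The *Uhrf2* run is chr19:30030263-30030512 on the plus strand with 23 CpG, the *Dnmt3b* run is chr2:153649199-153649448 on the plus strand with 21, and the *Tet2* run is chr3:133544391-133544640 on the minus strand with 51.
Uhrf2: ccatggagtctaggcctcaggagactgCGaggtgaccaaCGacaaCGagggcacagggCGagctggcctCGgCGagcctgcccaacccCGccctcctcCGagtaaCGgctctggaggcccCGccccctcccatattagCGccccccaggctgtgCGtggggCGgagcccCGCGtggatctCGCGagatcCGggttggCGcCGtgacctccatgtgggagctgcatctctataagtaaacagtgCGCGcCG
Dnmt3b: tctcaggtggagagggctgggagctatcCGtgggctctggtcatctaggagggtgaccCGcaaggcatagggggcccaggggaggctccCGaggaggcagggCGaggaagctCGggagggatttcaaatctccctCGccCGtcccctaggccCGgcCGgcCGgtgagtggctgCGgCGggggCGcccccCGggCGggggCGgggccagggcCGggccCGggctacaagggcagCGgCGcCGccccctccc
Tet2: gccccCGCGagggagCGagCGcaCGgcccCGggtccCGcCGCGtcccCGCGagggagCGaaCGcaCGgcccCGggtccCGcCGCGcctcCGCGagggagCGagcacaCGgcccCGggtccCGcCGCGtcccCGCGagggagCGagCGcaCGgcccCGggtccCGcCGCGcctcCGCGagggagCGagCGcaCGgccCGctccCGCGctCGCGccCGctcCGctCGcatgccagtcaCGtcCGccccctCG

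RefSeq start windows, from 250 bases before to 50 after a start, were matched for 8 members with 13 starts. They held 2 to 57 CpG. The median over 12197 starts of tested genes was 20 CpG (middle range 11 to 29), and 8 of the 13 starts held at least that many. Members with several starts spanned much of that range. *Dnmt1* held 2, 12 and 33 CpG at its 3 starts, *Dnmt3a* held 46, 47 and 18, and *Uhrf1* held 12 and 33. The weakly expressed *Dnmt3b* held 30 CpG and the strongly expressed *Uhrf2* 28. The letters GGGCGG, the core of sites of the SP transcription factors, were found on either strand at 11 of 13 member starts and at 62.5% of starts of tested genes. These are matches of letters and not binding sites, and windows of neighbouring starts overlap.

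**Figure D2:**
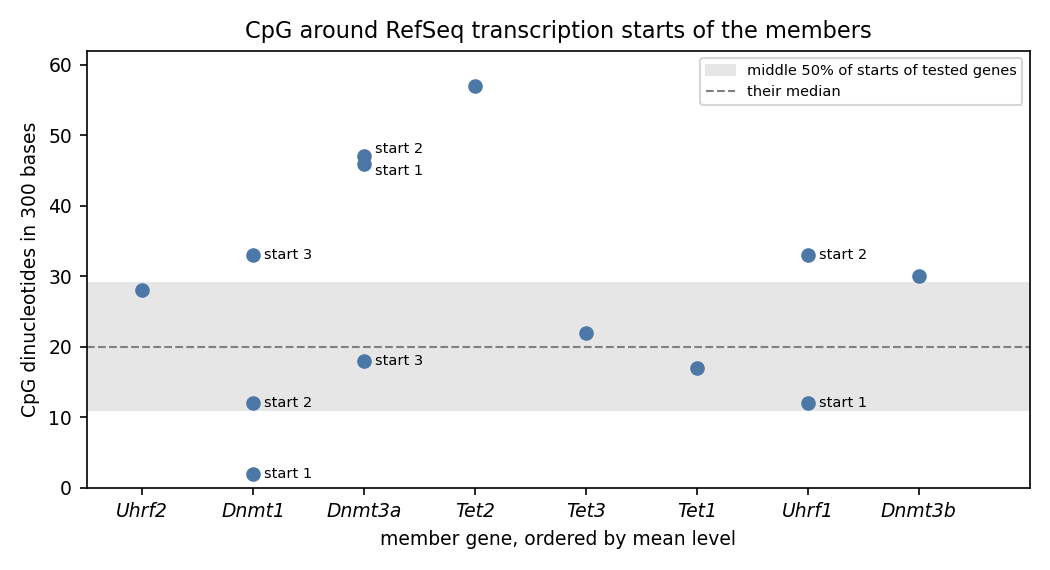
CpG dinucleotides in each 300-base window around RefSeq starts of 8 members, ordered by mean expression, with 1 point per start. The grey band is the middle range (11 to 29 CpG) and the dashed line the median (20) over starts of tested genes. Starts run from 2 CpG at *Dnmt1* start 1 to 57 CpG at *Tet2*.

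Among the writers, *Dnmt1* encodes the maintenance methyltransferase and lies on chromosome 9 from 20711650 to 20757317 (minus strand, mm9). It was at 7.004 and 9.65 FPKM in control mice and at 6.36, 8.55 and 8.17 in cKO mice. The lowest value of each group came from the first set, and the control range enclosed 2 of the 3 cKO values. Its log2 fold change was −0.10 (SE 0.17, 95% interval −0.49 to 0.29, limma adjusted p = 0.979). It was −0.12 and −0.19 within the sets. The direction rested on single libraries, turning to 0.11 without control 2 and to 0.02 without cKO 1.

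*Dnmt3a*, the main de novo methyltransferase gene of mature neurons, lies on chromosome 12 from 3806007 to 3914443 (plus strand). It was among the steadiest members, with 7.35 and 6.93 FPKM in control mice and 7.09, 7.18 and 6.37 in cKO mice. Of the cKO values 2 fell between the controls and cKO 3 fell below both. Between genotypes the log2 fold change was −0.05 (SE 0.12, limma adjusted p = 0.989), and the 95% interval of −0.32 to 0.22 corresponds to 0.802-fold to 1.17-fold on the FPKM + 1 scale. The set values were −0.04 and −0.03. Without control 2 the difference was −0.084, without control 1 it was −0.011, and without cKO 3 it was −8.17e-06. Its exons share 133 of 16642 nt with *Gm10485* on the opposite strand.

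*Dnmt3b*, the de novo enzyme best known from early development, lies on chromosome 2 (153475186 to 153513466, plus strand) and was close to the limit of detection. It was at 0.222 and 0.177 FPKM in control mice and at 0.178, 0.144 and 0.262 in cKO mice. At the estimated depth this amounts to 3.19 to 7.13 fragments a library, so a difference was not detectable here. The groups overlapped, and the difference on the log2(FPKM + 1) scale was −0.0070 (two-sided exact permutation p = 1, where the smallest possible is 0.1). It turned to 0.02 without control 1, 0.0024 without cKO 1 and 0.02 without cKO 2. *Dnmt3a* exceeded *Dnmt3b* by 24.4-fold to 49.9-fold, so *Dnmt3b* made up 0.906% to 1.77% of summed *Dnmt* FPKM. *Dnmt1* made up 46.7% to 57.6% and *Dnmt3a* 41.4% to 52.0%.

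*Uhrf1* encodes the partner that directs DNMT1 to newly replicated DNA, and it is expressed mainly in dividing cells. The gene lies on chromosome 17 from 56442744 to 56462909 (plus strand). It was at 0.232 and 0.523 FPKM in control mice and at 0.359, 0.225 and 0.586 in cKO mice, an estimated 4.14 to 13.3 fragments. The spread within each group exceeded the difference between them, which was 0.01 on the log2(FPKM + 1) scale (exact permutation p = 1). Within the sets it was 0.14 and −0.13. It turned to −0.14 without control 1 and to −0.09 without cKO 3. Of 14 markers of dividing cells 10 were below the 1 FPKM minimum, among them *Mki67* at 0.225 to 0.406 FPKM and *Top2a* at 0.336 to 0.658 FPKM. The other 4 were *Ccna2*, *Mcm2*, *Mcm5* and, far above these, *Pcna* at 41.8 to 49.1 FPKM, and 0 of the 4 passed an unadjusted limma p of 0.05. The summed level of the list was 53.5 to 53.6 FPKM across control mice and 48.3 to 58.4 across cKO mice, most of it from *Pcna*.

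*Uhrf2*, the relative of *Uhrf1* whose product binds hydroxymethylcytosine, lies on chromosome 19 from 30105003 to 30168212 (plus strand). It was at 14.6 and 17.3 FPKM in control mice and at 15.1, 19.6 and 16.6 in cKO mice. As for *Dnmt1*, both libraries of the first set were below the 3 of the second. The log2 fold change was 0.09 (SE 0.14, 95% interval −0.22 to 0.40, limma adjusted p = 0.9747), with set values of 0.04 and 0.06. It turned to −0.02 without control 1 and to −0.0069 without cKO 2. *Uhrf2* exceeded *Uhrf1* in every library, by 28.3-fold to 87.1-fold, and accounted for 96.6% to 98.9% of the FPKM of the pair.

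**Figure D3:**
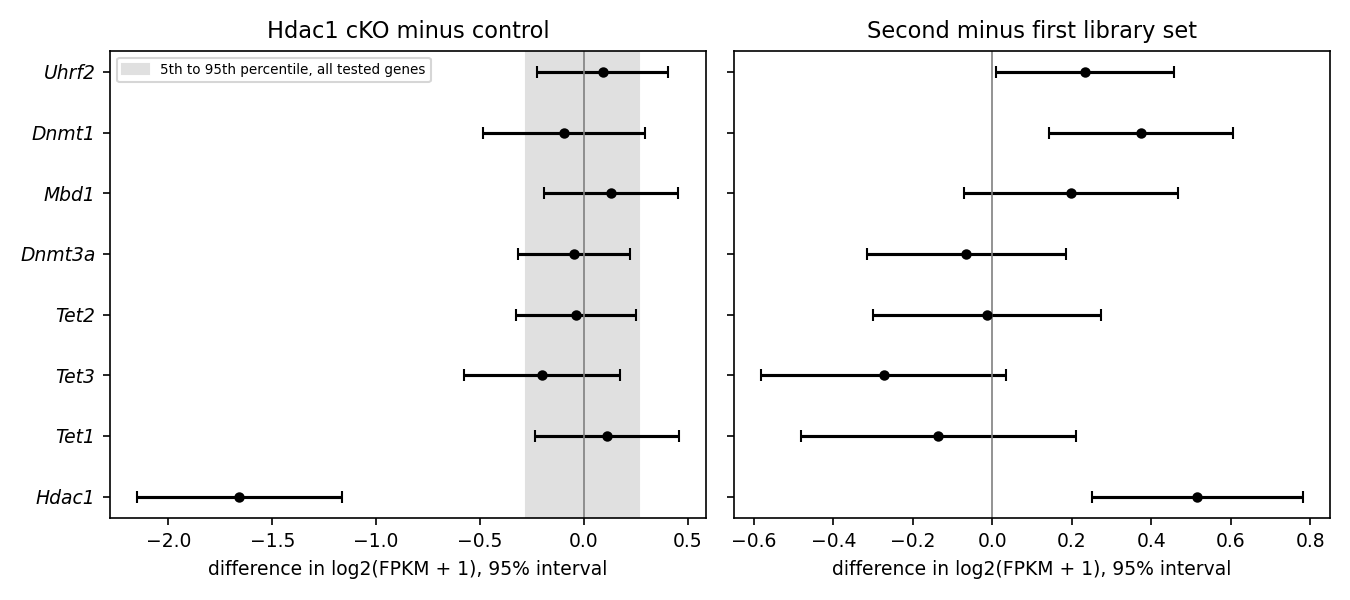
Differences in log2(FPKM + 1) with 95% limma intervals for the 7 tested members and *Hdac1*, between genotypes (left) and between the second and the first library set with genotype in the model (right). The grey band on the left spans the 5th to the 95th percentile of all tested genes, and the axes differ. Every member interval on the left includes 0, and on the right those of *Dnmt1* and *Uhrf2* do not.

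Of the erasers, *Tet1* lies on chromosome 10 (62267318 to 62361866, minus strand) and had the lowest level of the family. It was at 1.79 and 1.45 FPKM in control mice and at 1.96, 1.69 and 1.84 in cKO mice. Of the cKO values 2 exceeded both controls and cKO 2 lay between them. Its log2 fold change was 0.11 (SE 0.15, 95% interval −0.23 to 0.46, limma adjusted p = 0.974). It was 0.08 and 0.17 within the sets and stayed above 0 without any single library, from 0.018 without control 2 to 0.20 without control 1.

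*Tet2*, on chromosome 3 from 133126643 to 133207354 (minus strand), varied least among the TET genes relative to its mean (SD 5.50% of the mean over 5 libraries). Its values were 4.42 and 4.58 FPKM in control mice and 4.50, 4.59 and 4.0 in cKO mice. Only cKO 3 stood away from the other 4 libraries. Between genotypes the log2 fold change was −0.04 (SE 0.13, 95% interval −0.33 to 0.25, limma adjusted p = 0.989), with set values of 0.02 and −0.08, and it turned to 0.01 without cKO 3.

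*Tet3*, on chromosome 6 from 83312367 to 83391672 (minus strand), had the largest difference among the tested members. It was at 4.204 and 3.24 FPKM in control mice and at 3.60, 2.61 and 3.09 in cKO mice. Both lowest values were from cKO mice, but cKO 1 exceeded control 2. The cKO mean was 83.3% of the control mean (3.10 ± 0.491 FPKM, SD, n = 3, against 3.72 ± 0.682 FPKM, SD, n = 2). The log2 fold change of −0.20 (SE 0.16, 95% interval −0.58 to 0.17) had a limma adjusted p of 0.955 and a two-sided exact permutation p of 0.4. It was −0.18 and −0.14 within the sets, and from −0.35 without control 2 to −0.055 without control 1 when each library was left out in turn.

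The make-up of the TET transcripts was computed within each library, where scaling has no effect. *Tet2* made up 42.4% to 51.6% of summed *Tet* FPKM and *Tet3* 29.4% to 40.4%. *Tet1* made up 17.2% and 15.7% in control mice, and 19.5%, 19.0% and 20.6% in cKO mice. The *Tet1* share was thus higher in each cKO library than in both controls, whereas the shares of *Tet2* and *Tet3* overlapped. Beside this, the FPKM values of 20.4% of all tested genes did not overlap between groups. Out of the summed FPKM of all members the *Tet1* share overlapped, at 2.79% to 3.86% in control mice and 3.14% to 4.18% in cKO mice. The share within the TET genes was chosen after its values were seen and was not tested. The summed *Tet* level overlapped between groups, at 9.28 and 10.4 FPKM in control mice, and 8.89 to 10.05 in cKO mice.

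**Figure D4:**
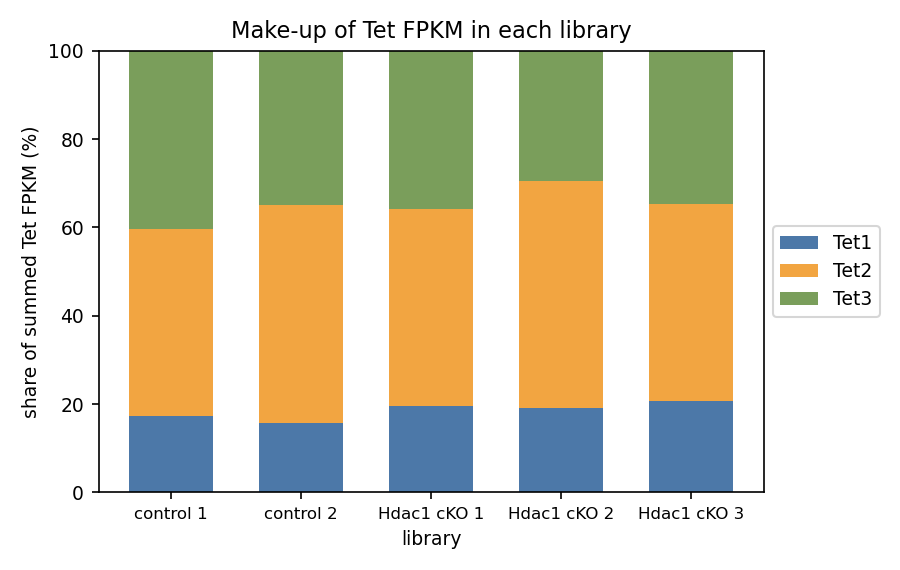
Share of *Tet1*, *Tet2* and *Tet3* in their summed FPKM, in percent, with 1 stacked bar per library. The lowest segment, *Tet1*, is 15.7% to 17.2% in the controls and 19.0% to 20.6% in *Hdac1* cKO, and the *Tet2* segment is the largest in all 5 bars.

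The reader *Mbd1* lies on chromosome 18 from 74427926 to 74442339 (plus strand) and encodes a protein that binds methylated CpG and recruits histone methyltransferases. It was at 6.58 and 8.33 FPKM in control mice and at 7.70, 9.21 and 7.77 in cKO mice. The lowest library was a control and the highest a cKO, and control 2 lay above 2 of the 3 cKO libraries. The log2 fold change was 0.13 (SE 0.14, 95% interval −0.19 to 0.45, limma adjusted p = 0.971), with 0.20 and 0.02 within the sets. It turned to −0.02 without control 1.

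The members were also compared between the library sets, and their counts are given beside those of all genes. With genotype in the model, *Dnmt1* was higher in the second set by 0.37 on the log2 scale (SE 0.0994, limma adjusted p = 0.0843) and *Uhrf2* by 0.23 (SE 0.0963, limma adjusted p = 0.203). The set difference of *Tet3* was −0.27 (SE 0.132, limma adjusted p = 0.269). These values give 2 of 7 tested members (28.6%) at an unadjusted limma p under 0.05, against 22.9% of all tested genes, and both were higher, against 14.2% of genes in that direction. At an adjusted p of 0.05 it was 0 of 7, against 3.09%. The sets did not overlap in *Dnmt1*, *Uhrf2*, *Tet3* and *Mbd1*, which is 4 of 7, against 40.1% of tested genes. With the set as a term 0 of the 7 members passed an unadjusted p of 0.05 for genotype, against 9.34% of all tested genes in that fit, and the genotype difference of *Dnmt1* was −0.16, as was that of *Tet3*. In the same fit 7 of 15 neuron markers were higher in the second set at an unadjusted limma p under 0.05 and 1 was lower, and of 8 hippocampal markers 1 was higher and 3 were lower. The part of these markers in the set differences was not tested.

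Other genes of DNA methylation were taken from a list of 47, ordered by role, of which 42 were tested. Of these 20 were above 0 and 22 below, with a median log2 fold change of −0.0066. At an unadjusted limma p of 0.05 there was 1 gene lower (1.99% of all genes were lower at that level) and 0 higher, and 0 passed an adjusted p of 0.05. The same gene was the 1 of 42 past the study's threshold, beside 0.659% of all genes. The groups did not overlap in 7 of 42 (16.7%), beside 20.4% of all tested genes. This count was 0 among the 11 tested writer cofactors, 5 among the 13 eraser partners and 2 among the 18 genes listed as readers. *Usp7*, a deubiquitinase that binds DNMT1 and UHRF1, was at 24.3 and 27.1 FPKM in control mice and at 24.97, 31.8 and 27.8 in cKO mice (log2 fold change 0.12, limma adjusted p = 0.966). The *Usp7* value was 0.047 without control 1 and 0.036 without cKO 2, and 0.20 without control 2 or without cKO 1. *Hells* encodes a chromatin remodeller needed for DNA methylation and was below the 1 FPKM minimum, at 0.769 and 0.989 FPKM in control mice and at 0.642, 0.765 and 0.625 in cKO mice. Every cKO value lay below both controls, by little in cKO 2, and the difference was −0.16 on the log2(FPKM + 1) scale (two-sided exact permutation p = 0.2). Without control 2 it was −0.078 and without control 1 −0.25. *Dnmt3l*, the inactive cofactor of the de novo enzymes, was listed at 0.399 and 0.281 FPKM in control mice and at 0.0997, 0 and 0.0986 in cKO mice. Its groups did not overlap, but the values rest on an estimated 0 to 4.87 fragments (exact permutation p = 0.1, the smallest possible). With no filter on FPKM it passed an unadjusted limma p of 0.05, with an adjusted p of 0.953.

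The partners of the erasers included the gene that passed. *Tdg*, the glycosylase gene that acts downstream of TET, was at 7.03 and 5.32 FPKM in control mice and at 2.58, 3.42 and 3.74 in cKO mice, with no overlap (log2 fold change −0.76, SE 0.17, limma adjusted p = 0.955, two-sided exact permutation p = 0.1). It was −1.17 and −0.47 within the sets. Its longest transcript matches *Gm5806* at 98.8% over 2848 of 3502 nt, and it shares 367 nt with *Glt8d2* on the opposite strand, so how reads were divided is unknown and the value of *Tdg* alone is uncertain. *Mbd4*, a glycosylase with a methyl-CpG binding domain, was at 2.40 FPKM in each control mouse and lower in the cKO mice, at 1.80, 1.92 and 1.65 (log2 fold change −0.29, SE 0.14, limma adjusted p = 0.955, two-sided exact permutation p = 0.1). The stress-response gene *Gadd45a*, linked to demethylation, had a log2 fold change of −0.29, *Gadd45b* −0.20 and *Gadd45g* −0.16, with limma adjusted p-values of 0.955. When single libraries were left out, *Gadd45a* ranged from −0.40 to −0.18, *Gadd45b* from −0.25 to −0.10 and *Gadd45g* from −0.27 to −0.11. Of 13 tested eraser partners 9 were below 0 with a median of −0.16. The cKO libraries lay below both controls in 5 of 13 (38.5%), namely *Tdg*, *Mbd4*, *Neil1*, *Gadd45a* and *Gadd45b*, against 9.41% of tested genes. This count was noticed, and *Neil1* named, after the values were seen, and all but *Tdg* missed an unadjusted p of 0.05. *Mbd4* passed it without the variance trend and without moderation of variances.

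Among the 18 tested genes listed as readers 0 passed an unadjusted limma p of 0.05, beside 4.36% of all tested genes. Of these 9 were above 0 and 9 below. The role was drawn broadly, and not all of its products bind methylated CpG. *Mbd2* and *Mbd3*, whose products belong to the NuRD complex that holds HDAC1, were measured at higher levels than *Mbd1*. *Mbd2* was at 25.4 and 20.5 FPKM in control mice and at 26.1, 23.3 and 20.6 in cKO mice (log2 fold change 0.03, limma adjusted p = 0.989). *Mbd3* was at 30.8 and 30.4 FPKM in control mice and at 34.4, 25.2 and 27.7 in cKO mice (log2 fold change −0.08, limma adjusted p = 0.976). *Mbd2* turned to −0.12 without control 2 and −0.06 without cKO 1, and *Mbd3* to 0.01 without cKO 2.

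**Figure D5:**
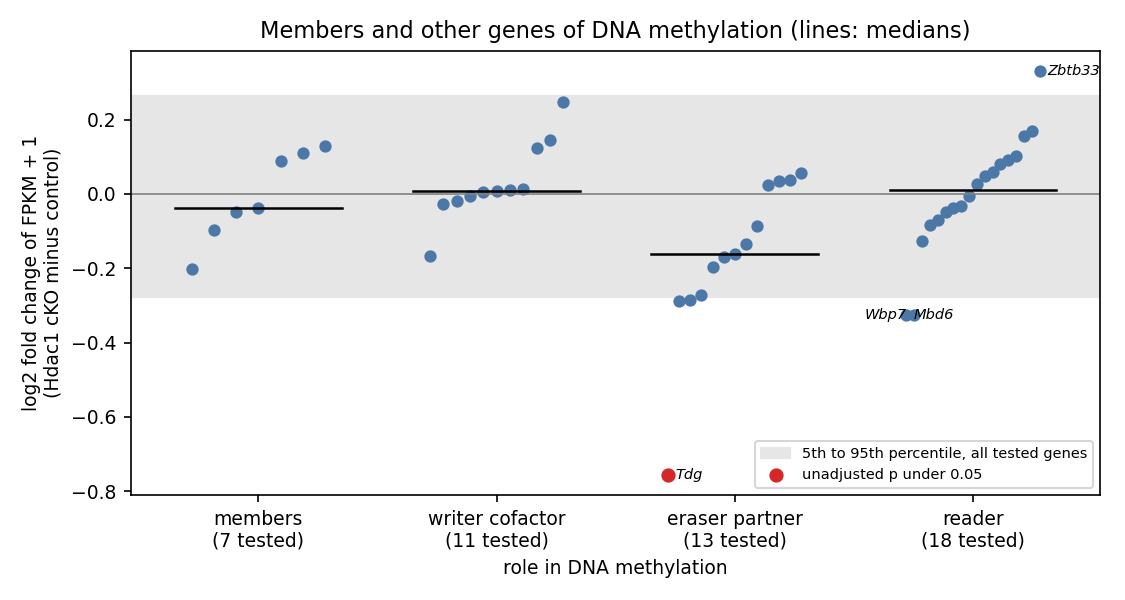
Log2 fold change of FPKM + 1 (*Hdac1* cKO minus control) for the tested members and the other tested genes of DNA methylation by role, with 1 point per gene and a line at each median. The grey band spans the 5th to the 95th percentile of all tested genes. The red point, *Tdg* at −0.76, is the one gene under an unadjusted p of 0.05, and the 7 members lie inside the band.

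Markers of cell types were compared between genotypes in the same fit. At an unadjusted limma p of 0.05, 2 of 15 neuron markers were lower and 2 of 15 astrocyte markers were higher, beside 4.36% of all tested genes in either direction. In sign, 14 of 15 neuron markers were below 0, and 10 of 15 astrocyte and 9 of 10 oligodendrocyte markers were above it. Over all tested genes 6844 of 12740 were above 0. Microglia markers had 5 above and 5 below, endothelial and hippocampal markers each 3 above and 5 below, and choroid plexus markers 2 and 2. The groups did not overlap in 4 of 15 neuron and 7 of 15 astrocyte markers, beside 20.4% of all tested genes. None of 10 oligodendrocyte, 10 microglia, 8 endothelial, 4 tested choroid plexus or 8 hippocampal markers passed. With the library set as a term, where 9.34% of all genes passed, the counts were 3 of 15 neuron markers lower, 5 of 15 astrocyte markers higher, and 1 each of the oligodendrocyte, microglia, endothelial and hippocampal markers. The choroid plexus list, led by *Ttr*, varied most, with sums of 6.28 to 166 FPKM across control mice and 24.9 to 604 across cKO mice. Their part in the member values was not tested.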

How the data were processed

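Hippocampal RNA of 5 mice was sequenced by the authors (Illumina TruSeq Total RNA) and aligned with TopHat and Bowtie, and the deposited FPKM values were made with Cufflinks 2.0.0 and the UCSC mm9 annotation. Whether strand was used in counting is not given in the sources used here. Groups followed the labels. RNA was extracted from hippocampal tissue with TRIzol. The date or batch of each library is not given in the sources used here, and p-values measure the spread between these 5 libraries. Counts and exact depth are unknown, and depth was estimated from the steps of low FPKM values, using 30 to 78 genes a library, so it is approximate. The study gives a mean yield of sequencing reads per sample that is larger than these estimates. How many of those reads were counted in each library is not given in the sources used here.

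Log2(FPKM + 1) was fitted with limma 3.58.1 (R 4.3.3; lmFit and eBayes with a variance trend, genotype as the only term, two-sided, Benjamini-Hochberg adjustment) over the 12740 genes whose mean reached 1 FPKM. Fold changes are on that scale, cKO minus control, and understate changes of low genes. *Dnmt3b* and *Uhrf1* fell under the minimum and were compared by exact permutation over the 10 splits. The study's rule was a fold of at least 1.5 with p under 0.05, with its test not given in the sources used here.

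Library sets were defined from the data, from the share of genes under 0.3 FPKM whose ratio between 2 libraries falls in the fullest window of 0.05 on the log2 scale, where over 10% joined libraries. The members and lists were chosen with earlier results of these data known. Genes named were the 9 members, *Hdac1*, 11 further genes of the methylation list (1 of which is not reported here), and any other gene of that list with an unadjusted p under 0.05. *Neil1* and the cell type markers named fall outside this rule. Coordinates are from GENCODE on mm9. Copies were transcripts matching at 95% or more over 200 nt or more (BLAST 2.17.0). Promoter sequences are from RefSeq (GRCm38.p6). The alternatives were a pseudocount of 0.1, no filter or a minimum of 5 FPKM, median-ratio, quantile and common-total (TPM) scaling, no variance trend, no moderation, a replicate or set block, and each library left out. The fit was tested on simulated data.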

Additional observations from a re-analysis of the deposited data

How the results depend on the processing

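The count of members at an unadjusted limma p under 0.05 was 0 in all 15 alternatives, in which 3.04% (without cKO 2) to 11.2% (replicate block) of all tested genes passed, against 4.36% in the main analysis. The count over all genes at a fold of 1.5 and p under 0.05 was 84, of which 60.7% were higher in the cKO, and it was 142 with a pseudocount of 0.1, 43 with a minimum of 5 FPKM, 31 without moderation and 124 under common-total scaling, where 41.1% were higher. Leaving out single libraries gave 92 to 231 (152 without control 1, 231 without control 2, 148 without cKO 1). The other methylation genes, 1 in the main analysis, numbered 2 with no filter, 0 with a minimum of 5 FPKM, 2 under common-total scaling, 3 without the variance trend, 2 without moderation and 2 with the library set as a block, and 1 to 3 when single libraries were left out (2 without control 2, 3 without cKO 1). Of all tested genes 9.34% passed with the set block and 7.61% without cKO 1, and between 3.04% and 5.38% in the other settings named for this list. The cause of these shifts was not tested.

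Replicate numbers are shared by 2 pairs and nothing in the labels says that they pair the samples. Deviations from the group means correlated across 12740 genes at r = 0.402 for replicate 1 and 0.269 for replicate 2, and at 0.152 between control 2 and cKO 3. With 2 controls the remaining pairs mirror these values, and the positive pairs are those within the library sets, so numbers and sets cannot be told apart here. With the replicate block the count over all genes was 133, and the differences of *Uhrf1* and *Tet2* turned to −0.087 and 0.012. No control shares the number of cKO 3, which adds nothing to the genotype difference in that fit, and both values equal those without cKO 3. *Uhrf1* was also −0.0087 under common-total scaling and −0.013 with the set block, and *Mbd2* was −0.039 under common-total scaling, where the median over all genes was −0.05 in place of 0.01. Under common-total scaling *Dnmt1* was −0.16, *Dnmt3a* −0.11, *Dnmt3b* −0.027, *Tet2* −0.10, *Tet3* −0.28, *Tet1* 0.082, *Uhrf2* 0.028 and *Mbd1* 0.074. When single libraries were left out, log2 fold changes ranged from −0.30 to 0.11 for *Dnmt1*, −0.084 to −8.17e-06 for *Dnmt3a*, −0.047 to 0.024 for *Dnmt3b*, −0.14 to 0.17 for *Uhrf1*, −0.023 to 0.20 for *Uhrf2*, −0.069 to 0.012 for *Tet2*, −0.020 to 0.28 for *Mbd1*, −0.12 to 0.17 for *Mbd2* and −0.21 to 0.010 for *Mbd3*. Of 124 alternative values of members 109 kept their direction and 15 reversed, and 20 of them, for *Dnmt3b* and *Uhrf1*, came without a test. The adjusted p of *Hdac1*, 0.219 in the main analysis, was 0.0115 under the replicate block, 0.00389 when library set was the block, and at most 0.931. That of *Tdg* ranged from 0.267 to 1.0. A minimum of 5 FPKM gave no value for *Tet1*, *Tet2*, *Tet3*, *Mbd4*, *Tdg* and *Gadd45a*, and *Dnmt3b* and *Uhrf1* had none there, under quantile scaling, without the trend or without moderation. With 2 and 3 libraries and few fragments for *Dnmt3b* and *Uhrf1*, small differences could not be detected.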
